A study of Mus musculus with 6 samples.

Results

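The genes described here are 10 rows of the count tables, of 49585 genes in all: the 2 Ctla2 genes Ctla2a and Ctla2b, the 7 cathepsin genes Ctsb, Ctsc, Ctsd, Ctsh, Ctsl, Ctss and Ctsz, and Cst3, which encodes cystatin C. The set was chosen by the readout of 1 gene: Ctla2a was selected on its lower values in the CD38 pos libraries, so its difference between the populations is a description and carries no test. Ctla2b was added as its paralog, and the cathepsins and Cst3 were added by family and function. All 10 symbols matched 1 identifier each, and all 10 passed the filter on low counts, which kept 14785 genes.

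The libraries are bulk RNA sequencing of mouse haematopoietic stem cells (HSCs), which sit in bone marrow and renew the blood, from untreated C57BL/6 mice aged 8 to 16 weeks. Per the labels, all cells were sorted as Lin- cells positive for Kit, Sca-1, CD150 and CD201 and negative for CD34 and CD48. They were then divided by surface CD38, an enzyme that consumes NAD, into a high gate, labelled CD38 pos, and a low gate, labelled CD38 neg. There were 3 libraries per population, each from the pooled HSCs of 10 mice, and the series' design text joins them into 3 pairs. No genotype or agent other than these was given for either group, and p-values measure the spread between such pools, not between single mice. Because the samples are bulk, fewer cells that express a gene and less RNA per cell cannot be told apart.

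Total counts were 16771180 to 18558610 per library, so that 3 counts corresponded to 0.16 to 0.18 CPM (counts scaled to library size). All 12 HSC marker genes had reads in all 6 libraries, with a summed level of 860 to 1859 CPM in CD38 pos and 1082 to 2389 CPM in CD38 neg. All 13 granulocyte markers were also present in every library, with a summed level of 71430 to 161600 CPM in CD38 pos and 80730 to 129700 CPM in CD38 neg, although the sort excluded cells with lineage markers. The libraries therefore hold abundant transcripts of genes that also mark maturing granulocytes, and their part in the levels below was not tested.

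Cathepsins are proteases of the lysosome, the compartment in which cells break down proteins. Most of those described here are cysteine proteases made as inactive proenzymes, whose propeptide folds over the active site until it is cut away, and cathepsin D is an aspartic protease. The Ctla2 proteins resemble the propeptide of cysteine cathepsins without a protease domain behind it and can inhibit such enzymes. They were first found in activated T cells and mast cells, and Ctla2a transcripts are also a known feature of mouse stem and progenitor cells. Cystatin C is a secreted inhibitor from another protein family that blocks the same enzymes.

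Ctla2a (ENSMUSG00000044258, GRCm38 chr13:60934155-60936625, minus strand) and Ctla2b (ENSMUSG00000074874, chr13:60895350-60897447, minus strand) are both protein coding and lie close together in the same orientation. Their coding sequences are shown because their likeness sets how well reads can be assigned to either gene. In the GENCODE release M21 models, the coding sequence had 411 bases in Ctla2a and 339 bases in Ctla2b, both spread over transcripts of 5 exons, and Ctla2a began with 72 coding bases that Ctla2b lacked. Over the 339 aligned bases, 326 were identical (96.2%) and 13 differed. The stretch below covers coding bases 73 to 222 of Ctla2a and 1 to 150 of Ctla2b, 5′ to 3′, with capitals for the 6 positions at which the paralogs differ.
Ctla2a: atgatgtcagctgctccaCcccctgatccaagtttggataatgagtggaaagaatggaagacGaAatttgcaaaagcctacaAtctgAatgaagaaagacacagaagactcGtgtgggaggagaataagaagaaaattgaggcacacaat
Ctla2b: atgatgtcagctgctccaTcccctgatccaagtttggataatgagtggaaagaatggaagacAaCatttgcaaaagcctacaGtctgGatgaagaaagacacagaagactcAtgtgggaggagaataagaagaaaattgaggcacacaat
Of the 2341 words of 50 bases in the transcripts of Ctla2a, 340 (14.5%) were also found in another counted gene, and 268 of these in Ctla2b. Of the 1810 words of Ctla2b, the same 268 (14.8%) were shared with a counted gene, and each of them with Ctla2a. Most 50-base words of each paralog were thus its own, but reads from the shared part could be given to either gene or to neither. The handling of such reads is not given in the sources used here, and the values of the paralogs are uncertain to that extent.

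The sequences upstream of the paralogs are shown because both genes had lower values in CD38 pos in every pair. They were taken from RefSeq (GRCm38.p6) and are the 250 bases before a start of each gene, at chr13:60936626-60936875 for Ctla2a and chr13:60897448-60897697 for Ctla2b, minus strand. Ctla2a has another start, with the window chr13:60936567-60936816, which is not shown. Of 228 aligned bases of the windows shown, 208 were identical (91.2%), with 44 gap positions. Capitals mark bases that differ from the paralog or have no partner in it.
Ctla2a upstream: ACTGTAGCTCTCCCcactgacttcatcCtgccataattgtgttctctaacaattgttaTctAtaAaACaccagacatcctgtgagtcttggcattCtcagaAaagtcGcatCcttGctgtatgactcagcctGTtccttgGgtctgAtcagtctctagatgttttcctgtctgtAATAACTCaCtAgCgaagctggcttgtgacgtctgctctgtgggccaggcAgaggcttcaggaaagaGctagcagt
Ctla2b upstream: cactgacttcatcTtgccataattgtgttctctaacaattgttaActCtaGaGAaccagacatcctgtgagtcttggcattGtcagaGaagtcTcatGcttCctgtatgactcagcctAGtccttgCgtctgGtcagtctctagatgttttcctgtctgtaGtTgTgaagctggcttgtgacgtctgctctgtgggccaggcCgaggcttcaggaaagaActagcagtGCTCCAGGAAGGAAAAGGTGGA
The likeness of the paralogs thus continued upstream of their own gene models. Both strands of the upstream windows were searched for 3 short motifs that do not contain each other. The first was CACGTG, the E-box bound by lysosomal regulators of the TFEB family. The second was the promoter element CCAAT. The third was AGATAA, a form of the motif of the GATA factors that act in blood cells. This last motif was found in Ctla2a and Ctsz and not in Ctla2b, and 11.4% of 27025 genes held it in the same window. Genes with more than 1 start were counted if any of their windows held the motif. In Ctla2a the match lay in the window shown, and the window of the other start held none. The E-box had 2 matches in Ctsd and 1 in Ctsl, and 6.86% of genes held it. The promoter element was found in Ctsz, among the 8 members with an entry in the promoter table, and in 37.5% of genes. Ctsb and Ctsh had no entry. A match is a description of letters, not a binding site.

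Ctla2a transcripts were lower in CD38 pos than in CD38 neg in every pair, as the choice of the gene fixes. Ctla2a had 885, 586 and 1215 reads in CD38 pos replicates 1, 2 and 3, and 1420, 2224 and 2045 reads in the CD38 neg libraries of the same pairs. After scaling, these were 53.0, 33.2 and 67.0 CPM against 84.6, 123.6 and 125 CPM. The highest CD38 pos library lay below the lowest CD38 neg library, and pair 2 held the lowest value of all. The means were 51.1 ± 17.02 CPM (SD, n = 3) and 111 ± 23.0 CPM (SD, n = 3). Ctla2a was thus 2.22-fold lower, at -1.15 on the log2 scale (SE 0.24). The log2 differences within pairs 1, 2 and 3 were -0.67, -1.90 and -0.90, so pair 2 had the largest difference. Without pair 2 the log2 fold change was -0.80, and without pair 1 it was -1.40.

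Ctla2b, the paralog, was measured at a lower level and differed in the same direction. It had 10.1, 9.73 and 15.3 CPM in CD38 pos replicates 1, 2 and 3 and 14.2, 20.4 and 20.3 CPM in their CD38 neg partners. The groups overlapped, since CD38 pos replicate 3 was above CD38 neg replicate 1. The means were 11.7 ± 3.13 CPM (SD, n = 3) and 18.3 ± 3.53 CPM (SD, n = 3), and the fitted log2 difference was -0.65 (SE 0.25), at an edgeR adjusted p of 0.925. The unadjusted p was 0.0209, and the pair differences were -0.49, -1.06 and -0.40. The difference of Ctla2b did not pass the threshold, and since its sequence is shared in part with Ctla2a it is not independent of the gene by which the set was chosen.

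The ratio of Ctla2a reads to Ctla2b reads was 5.94, 6.06 and 6.16 in the CD38 neg libraries of pairs 1, 2 and 3, and 5.24, 3.41 and 4.37 in the CD38 pos libraries. The CD38 neg ratios lay close together, and the CD38 pos ratios were all below them and more spread. This is a description: the ratio contains the gene chosen by its low CD38 pos values, and whether the paralogs differ by unequal factors was not tested.

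**Figure D1:**
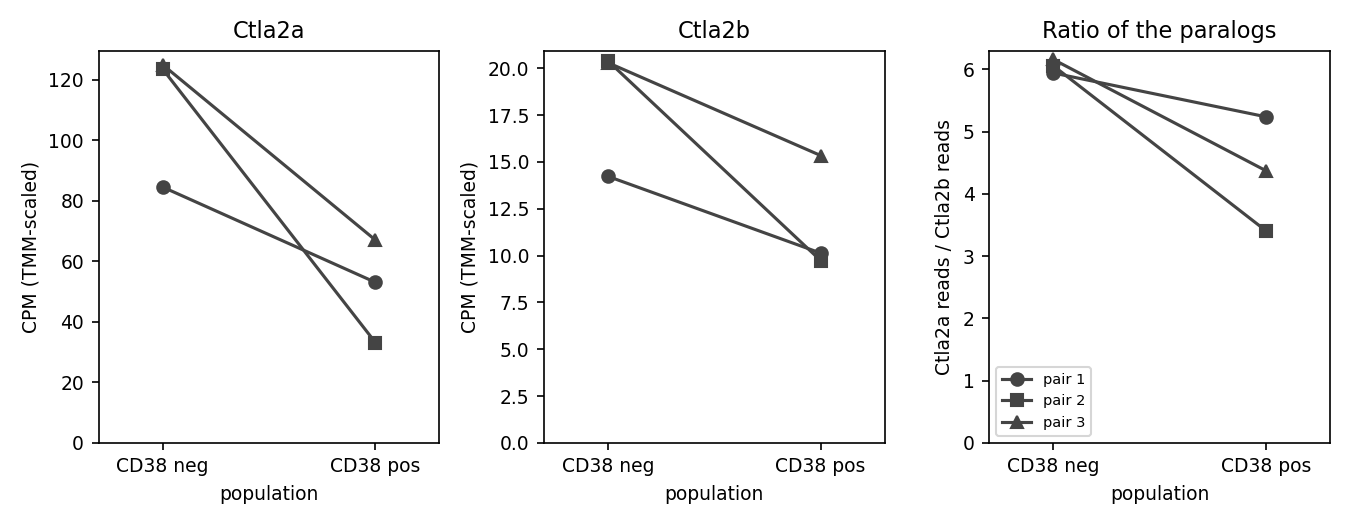
Ctla2a (left) and Ctla2b (middle) in TMM-scaled CPM, and the ratio of their reads (right), by population on linear axes from 0, with 1 line per pair and 1 symbol per library. All 3 lines fall from CD38 neg to CD38 pos in each panel, and the CD38 neg ratios lie between 5.94 and 6.16.

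The counts over the whole set were read against those over all genes tested. In edgeR's quasi-likelihood test with Benjamini-Hochberg adjustment over all genes, 0 of the 10 members passed an adjusted p of 0.05, where 0.0135% of all tested genes passed. Of the 9 members other than Ctla2a, DESeq2 and limma-voom with the same block also called 0, where they called 0.0744% and 0.0203% of all genes. At an unadjusted p under 0.05 there were 2 members higher in CD38 pos, Ctsc and Ctsh, against 2.47% of all genes. On the lower side were the 2 Ctla2 genes, against 2.61% of all genes, a count to which Ctla2a belongs by choice. In all 3 pairs, 3 members were higher (Ctsc, Ctsd and Ctsh) and 2 lower (Ctla2a and Ctla2b), where the shares of all genes were 13.2% and 11.3%. The groups did not overlap for 2 members higher in CD38 pos, Ctsc and Ctsh, against 3.33% of all genes, and for 1 lower, Ctla2a, against 3.19%. The median log2 fold change of the 9 members other than Ctla2a was 0.16, and that of all genes 0.00.

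**Figure D2:**
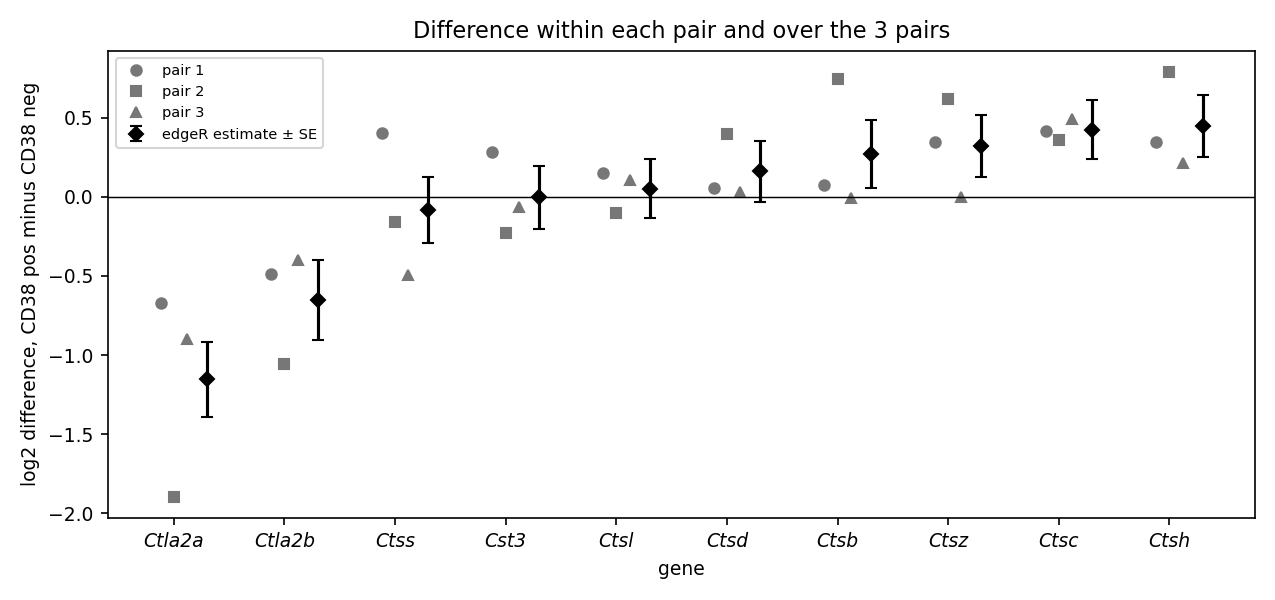
Log2 difference of CD38 pos minus CD38 neg for each member, with grey symbols for the 3 pairs and black diamonds for the edgeR estimate with its SE. The Ctla2 genes lie below 0 in all 3 pairs; Ctsc, Ctsd and Ctsh lie above 0 in all 3, and Ctss spans 0.40 to -0.49.

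Among the cathepsins, 6 of 7 had positive log2 fold changes, with a median of 0.27, but none passed the threshold in edgeR. The medians of the 7 genes within pairs 1, 2 and 3 were 0.34, 0.40 and 0.03, so pair 3 contributed little. Their summed level was 2027, 2257 and 2004 CPM in CD38 pos replicates 1, 2 and 3 and 1770, 1550 and 1914 CPM in CD38 neg, without overlap. Ctsb made up 39.0% to 45.4% of this sum in each library, so the sum follows that gene more than any other.

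Ctsc (ENSMUSG00000030560, chr7:88278085-88310888, plus strand) and Ctsh (ENSMUSG00000032359, chr9:90054152-90076089, plus strand) both trim proteins from the amino-terminal end. Cathepsin C is the dipeptidyl peptidase that activates the serine proteases of granulocyte, mast cell and cytotoxic granules. Ctsc had 278, 327 and 358 CPM in CD38 pos and 208, 255 and 255 CPM in CD38 neg. All 3 CD38 pos libraries were above all 3 CD38 neg libraries. The means were 321 ± 40.8 and 239 ± 27.1 CPM (SD, n = 3 each), and the fitted log2 difference was 0.42 (SE 0.19), with an edgeR unadjusted p of 0.0399 and an adjusted p of 0.926. The pair differences of 0.42, 0.36 and 0.49 were the most even of the set, and leaving out a pair gave 0.39 to 0.44.

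Cathepsin H is an aminopeptidase. Ctsh had 162, 158 and 146 CPM in CD38 pos and 127, 91.1 and 126 CPM in CD38 neg, again without overlap. The CD38 pos libraries lay close together, and the second CD38 neg library stood lowest. The fitted log2 difference was 0.45 (SE 0.19; edgeR unadjusted p 0.0366, adjusted p 0.926), and the pair differences were 0.34, 0.79 and 0.21. Without pair 2 the log2 fold change was 0.27.

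Ctsb (ENSMUSG00000021939, chr14:63122462-63145923, plus strand) encodes cathepsin B, a broadly expressed endopeptidase that also trims carboxy-terminal dipeptides. It had 802, 1011 and 865 CPM in CD38 pos and 761, 604 and 869 CPM in CD38 neg. The groups overlapped, and the second pair stood apart with its high CD38 pos and low CD38 neg value. The fitted log2 difference was 0.27 (SE 0.22; edgeR adjusted p 0.932), the pair differences were 0.08, 0.74 and -0.01, and without pair 2 the value was 0.02. Of its 50-base words, 12.1% were shared with Fdft1, which overlaps it on the opposite strand and had 4082 reads in the 6 libraries. The strand setting of the counting is not given in the sources used here, so reads of the overlap could belong to either gene.

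Ctsz (ENSMUSG00000016256, chr2:174427493-174439039, minus strand) encodes cathepsin Z, a carboxypeptidase. It had 257, 274 and 198 CPM in CD38 pos and 202, 179 and 198 CPM in CD38 neg. Pairs 1 and 2 differed by 0.35 and 0.62 on the log2 scale, while the libraries of pair 3 were nearly equal. The fitted log2 difference was 0.32 (SE 0.20; edgeR adjusted p 0.926). Nelfcd, which had 8569 reads, overlaps Ctsz on the opposite strand, but no 50-base word of Ctsz was shared with another counted gene.

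Ctsd (ENSMUSG00000007891, chr7:142375911-142388038, minus strand) encodes the aspartic protease cathepsin D, a main lysosomal endopeptidase and outside the class that the Ctla2 proteins resemble. It had 308, 334 and 262 CPM in CD38 pos and 296, 254 and 257 CPM in CD38 neg. Each CD38 pos library was above its partner, but the groups overlapped. The fitted log2 difference was 0.16 (SE 0.19; edgeR adjusted p 0.944), with pair differences of 0.06, 0.40 and 0.03. The annotated gene Gm49369 overlaps Ctsd on the same strand, shares 32.4% of its 50-base words and had 0 reads in the 6 libraries. The handling of reads from the overlap is not given in the sources used here, and the Ctsd values are uncertain to that extent.

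Ctsl (ENSMUSG00000021477, chr13:64359337-64370890, minus strand) encodes cathepsin L, the endopeptidase whose propeptide the Ctla2 proteins resemble most closely. It had 58.2, 56.9 and 74.2 CPM in CD38 pos and 52.4, 61.0 and 68.8 CPM in CD38 neg. The groups overlapped almost completely, with the highest value of each in replicate 3. The fitted log2 difference was 0.05 (SE 0.19; edgeR adjusted p 0.981), and the pair differences were 0.15, -0.10 and 0.11.

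Ctss (ENSMUSG00000038642, chr3:95526786-95556403, plus strand) encodes cathepsin S, which removes the invariant chain from MHC class II molecules in antigen-presenting cells. It had 162, 95.8 and 100.5 CPM in CD38 pos and 123, 107 and 141 CPM in CD38 neg. The first CD38 pos library was the highest of the 6 and the other two CD38 pos libraries were the lowest. The fitted log2 difference was -0.08 (SE 0.21; edgeR adjusted p 0.970), the pair differences were 0.40, -0.16 and -0.49, and without pair 3 the sign turned, to 0.12.

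Cst3 (ENSMUSG00000027447, chr2:148871722-148875692, minus strand), the gene of the secreted inhibitor cystatin C, had nearly equal means in both populations. It had 469, 306 and 399 CPM in CD38 pos and 385, 359 and 418 CPM in CD38 neg. The CD38 pos values spanned the CD38 neg values on both sides. The means were 391 ± 81.8 and 387 ± 29.3 CPM (SD, n = 3 each), the fitted log2 difference was 0.00 (SE 0.20; edgeR adjusted p 0.998), and the pair differences were 0.29, -0.23 and -0.07. Its sign depended on the setting.

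**Figure D3:**
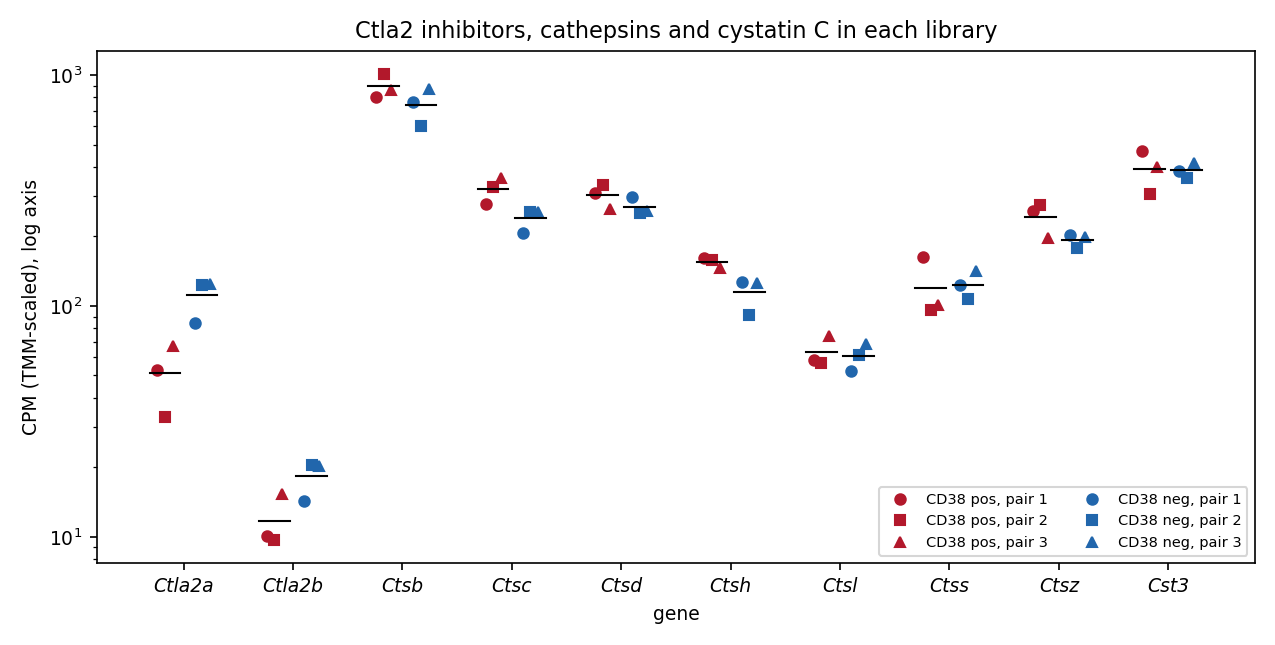
TMM-scaled CPM of each member in each library on a log axis, CD38 pos in red and CD38 neg in blue, with 1 symbol shape per pair and a bar at each group's mean. The populations separate for Ctla2a, Ctsc and Ctsh and overlap for the other members.

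Levels of different genes were compared per kilobase of exon. Cst3 had the highest level of the 10 in every library, from 242 to 371 CPM per kilobase. Ctsz, Ctsb and Ctsd followed, at means of 134 ± 8.66, 123 ± 22.0 and 114 ± 10.0 CPM per kilobase in CD38 neg (SD, n = 3 each). Ctsz was above Ctsd in all 6 libraries, whereas Ctsb overlapped with both. The Ctsd level is uncertain where Gm49369 overlaps it. Ctss was next, at 91.2 CPM per kilobase in CD38 neg. By this length Ctla2a stood sixth in each CD38 neg library, at a mean of 52.7 ± 10.9 CPM per kilobase (SD, n = 3), and eighth in each CD38 pos library, at 24.2 ± 8.08 CPM per kilobase (SD, n = 3). In the CD38 pos libraries Ctsc, at 55.3, and Ctsh, at 34.5 CPM per kilobase, were above it. Ctla2b and Ctsl were the lowest, at 10.6 and 9.36 CPM per kilobase in CD38 neg. The order depended on the gene model. With the longest transcript as length Ctla2a stood at ranks 7, 5 and 6 in the CD38 neg libraries of pairs 1, 2 and 3, and with the transcript that GENCODE numbers first at ranks 8, 6 and 7. Ctsl has a transcript of 6168 bases, and with its first-numbered transcript of 1971 bases, Ctla2b was lowest in every library.

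Set against the 6 cysteine cathepsins, without the aspartic protease Ctsd, the Ctla2a level per kilobase was 0.0935, 0.156 and 0.127 of their summed level per kilobase in the CD38 neg libraries of pairs 1, 2 and 3. In the CD38 pos libraries it was 0.0481, 0.0298 and 0.0692 of that sum. The cysteine cathepsin transcripts together exceeded those of Ctla2a in every library, and these ratios of transcripts say nothing of protein amounts.

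The other cathepsin genes were examined as a list of 16, of which 6 passed the filter. In edgeR 0 of the 6 passed an adjusted p of 0.05, and DESeq2 and limma-voom also called 0. At an edgeR unadjusted p under 0.05, 0 were higher and 0 lower, beside 2.47% and 2.61% of all genes. The median log2 fold change of the 6 was -0.07. The rodent cathepsins Cts3, Cts6, Cts7, Ctsll3, Ctsm, Ctsq and Ctsr, most of which are known from placenta, had 0 reads in every library. Ctse, an aspartic protease of blood and epithelial cells, had 312, 161 and 121 CPM in CD38 pos and 330, 155 and 271 CPM in CD38 neg, and its fitted log2 difference of -0.39 (edgeR adjusted p 0.926) lay in pair 3. Ctsf was at -0.14 on the log2 scale (edgeR adjusted p 0.955), with pair differences of -0.42, -0.22 and 0.21. Ctsw was at -0.11 (edgeR adjusted p 0.974), with pair differences of -0.15, -0.62 and 0.44.

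Of 18 cystatins, stefins and related inhibitors, 17 matched a counted gene and 7 passed the filter. In edgeR, DESeq2 and limma-voom 0 of these passed the adjusted threshold. In edgeR 1 was lower and 0 higher at an unadjusted p under 0.05, beside 2.61% and 2.47% of all genes. The lower gene was Stfa1, a stefin of myeloid cells, which averaged 2.87 ± 2.56 and 4.63 ± 1.12 CPM in CD38 pos and CD38 neg (SD, n = 3 each). Its log2 fold change was -0.98 (edgeR unadjusted p 0.0424, adjusted p 0.926), with pair differences of 0.28, -1.45 and -1.76. Cstb, the cytosolic cathepsin inhibitor stefin B, was at -0.40 (edgeR adjusted p 0.926), with pair differences of 0.23, -0.88 and -0.55, and Stfa2l1 was at 0.45 (edgeR adjusted p 0.936), with pair differences of 1.21, -0.30 and 0.37. The Stfa2l1 value rested on pair 1, without which it was 0.03. None of these 3 inhibitor genes kept 1 direction in the 3 pairs.

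A list of 18 genes for cathepsin processing, lysosomal sorting and lysosomal partners passed the filter in full. In edgeR, DESeq2 and limma-voom 0 of the 18 passed the adjusted threshold. In edgeR 2 were higher and 0 lower at an unadjusted p under 0.05, beside 2.47% and 2.61% of all genes. The median log2 fold change was 0.15, and 8 were higher and 3 lower in all 3 pairs, beside 13.2% and 11.3% of all genes. Grn, the gene of progranulin, which is carried to the lysosome and cut there by cathepsins, averaged 283 ± 89.3 and 200.9 ± 62.5 CPM in CD38 pos and CD38 neg (SD, n = 3 each). Its log2 fold change was 0.49 (edgeR unadjusted p 0.0357, adjusted p 0.926) and its pair differences 0.10, 0.96 and 0.41. Nagpa, which uncovers the mannose 6-phosphate signal that sends cathepsins to the lysosome, also had 0.49, with pair differences of 0.21, 1.03 and 0.22 (edgeR unadjusted p 0.0413, adjusted p 0.926). Lamp1, a lysosomal membrane protein gene, had 0.49 as well (edgeR adjusted p 0.926), but was lower in pair 1, at -0.22. As with Ctsb, Ctsh and Ctsz, pair 2 gave the largest differences for Grn, Nagpa and Lamp1.

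Markers of other cell types were measured beside the members, since cathepsins are abundant in phagocytes and antigen-presenting cells. The 13 granulocyte markers had log2 differences of their summed level of 0.47, -0.18 and -0.47 in pairs 1, 2 and 3. Those of Ctss were 0.40, -0.16 and -0.49, and Ctsg, the granulocyte protease of the further cathepsin list, had 0.92, -0.12 and -0.80. The order of the pairs was the same in all of these, but it was not particular to granulocyte markers. The mast cell and basophil sum, at 0.80, -0.18 and -0.46, also had it. So did the T and NK cell sum, at 0.67, -0.41 and -0.91, but Nkg7 alone gave 77.3% to 90.4% of it. Without Nkg7 the T and NK cell differences were 0.09, -0.17 and 0.33, in another order. The part of granulocyte transcripts in the values of Ctss was not tested. The 12 dendritic cell markers, which include the MHC class II genes whose products cathepsin S serves, had 0.09, -0.44 and -0.01, with a summed level of 687 to 751 CPM in CD38 pos and 697 to 930 CPM in CD38 neg.

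The 16 monocyte and macrophage markers were all detected in every library, with a summed level of 1696 to 3127 CPM in CD38 pos and 1443 to 1896 CPM in CD38 neg. Their log2 differences were 0.72, 0.31 and -0.01 in pairs 1, 2 and 3, where Ctsz had 0.35, 0.62 and 0.00 and Ctsb 0.08, 0.74 and -0.01. Ly6c2 alone made up 37.0% to 61.8% of that sum. Without it the other markers summed to 1021 to 1196 CPM in CD38 pos and 747 to 870 CPM in CD38 neg, without overlap, and differed by 0.46, 0.60 and 0.25. In edgeR 0 of the 16 passed the adjusted threshold, with a median log2 fold change of 0.19, 10 positive and 6 negative. At an unadjusted p under 0.05, 4 were higher and 0 lower, beside 2.47% and 2.61% of all genes. These 4, named after their values were seen, were Csf1r at 0.68, Mertk at 0.91, F13a1 at 0.55 and Cx3cr1 at 0.97 on the log2 scale, while the lowest was Ms4a7 at -0.44. The part of monocyte and macrophage transcripts in the cathepsin values was not tested.

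The 12 HSC markers had log2 differences of their summed level of -0.33, -1.14 and 0.19, where Ctla2a had -0.67, -1.90 and -0.90. Pair 2 was the lowest for both, while in pair 3 Ctla2a was lower in CD38 pos with the HSC sum slightly higher. The sums of other cells that can express Ctla2a varied as well. For the 13 T and NK cell markers the differences were 0.67, -0.41 and -0.91, but Nkg7 alone gave 77.3% to 90.4% of that sum. The other 12 summed to 31.0 to 36.9 CPM in CD38 pos and 29.2 to 34.9 CPM in CD38 neg, with differences of 0.09, -0.17 and 0.33, and Cd3e had at most 0.24 CPM in any library. For the 10 mast cell and basophil markers they were 0.80, -0.18 and -0.46, with Mcpt4 and Tpsb2 at 0 in every library. For the 12 endothelial markers they were -0.30, -0.28 and 0.38. Of the 11 endothelial markers that passed the filter, 7 had positive and 4 negative log2 fold changes, with a median of 0.16. In edgeR 3 of these were higher and 0 lower at an unadjusted p under 0.05, beside 2.47% and 2.61% of all genes. In pair 1 Ctla2a was lower while the mast cell sum was higher, and the part of any of these cells was not tested.

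The summed level of the 12 B and plasma cell markers was lower in CD38 pos in every pair, as Ctla2a was. Jchain, Igkc and Ighm held most of that sum in each library. Every other marker of the list was higher in CD38 pos in pair 1, from 0.06 (Sdc1) to 1.11 (Cd79a) on the log2 scale. In pairs 2 and 3 most of these others were lower. Of the single markers, 3 were lower and 1 higher in all 3 pairs, beside 11.3% and 13.2% of all genes. The median log2 fold change of the 12 was -0.11. All 12 were detected in every library, and their summed level was 356 to 1074 CPM in CD38 pos and 1212 to 2846 CPM in CD38 neg, without overlap. The differences were -0.67, -1.77 and -2.55 in pairs 1, 2 and 3, so the largest was in pair 3, whereas that of Ctla2a was in pair 2. In edgeR 0 of the 12 passed the adjusted threshold. At an unadjusted p under 0.05, 3 were lower and 1 higher, beside 2.61% and 2.47% of all genes. The 3 lower ones were the antibody genes Jchain, Igkc and Ighm, at -4.26, -3.07 and -1.19 (edgeR adjusted p 0.0701, 0.125 and 0.695). They were named after their values were seen, and the part of B and plasma cell transcripts in the values of Ctla2a was not tested.

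**Figure D4:**
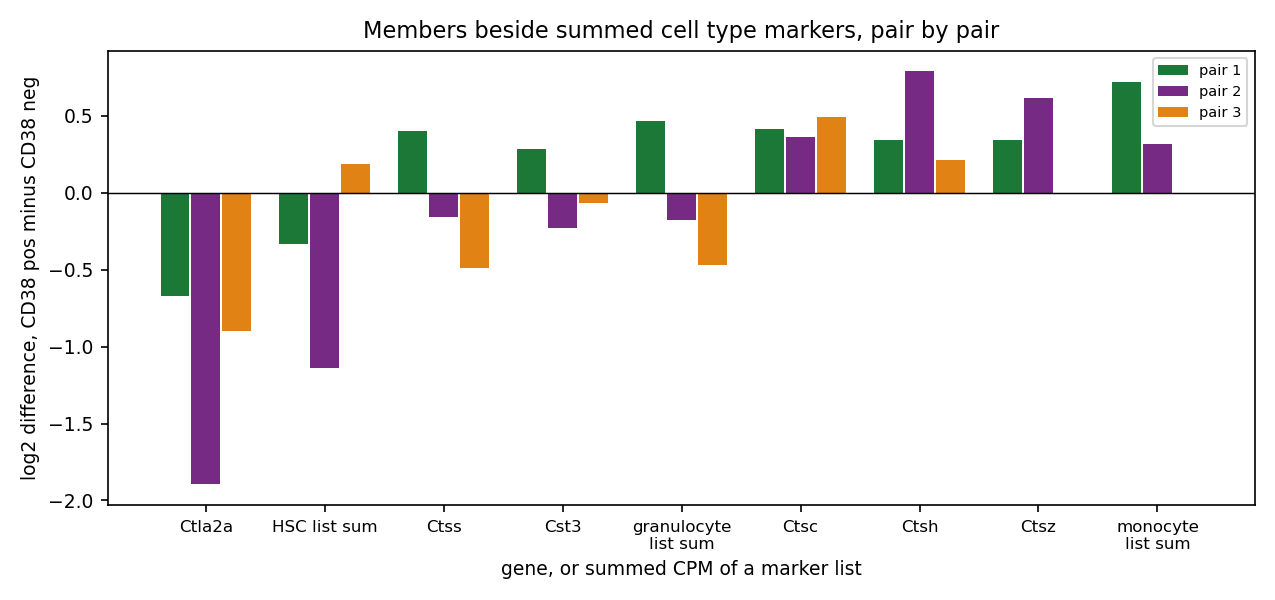
Log2 difference of CD38 pos minus CD38 neg within each pair (1 bar per pair) for 6 members and for the summed CPM of the HSC, granulocyte and monocyte marker lists. Ctss and the granulocyte sum have a positive bar in pair 1 and negative bars in pairs 2 and 3, and Ctla2a is below 0 in all 3 pairs.

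The genes whose values ran most like those of Ctla2a were ranked by Pearson's r of log2 CPM over the 6 libraries, among 6765 genes with a mean of at least 20 CPM. The highest were Gm26735 (r = 0.986), Rgs1 (0.976), Cbr1 (0.974), Rpl32 (0.971) and Nr2c2 (0.971). Ctla2b, whose mean was under that minimum, had r = 0.944. Ctsz, Ctsd, Ctsh, Ctsb and Ctsc had -0.90, -0.88, -0.81, -0.69 and -0.57, and Ctsl, Ctss and Cst3 had 0.29, 0.24 and 0.33. All these r contain the population difference by which Ctla2a was chosen, so they are descriptions. After the mean of each pair was subtracted, the highest were Prrc2b, Tbca, Malat1, Muc13 and Nbdy, with r of 0.9988 to 0.9997, and Ctla2b had 0.993. The subtracted values hold only 3 independent differences, so such high r are descriptions of 3 numbers. Of these 10 genes Rgs1, a regulator of G protein signalling, and Malat1, a nuclear noncoding RNA, had the lowest log2 fold changes, at -0.95 and -0.75.

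For Ctss the genes most alike over the 6 libraries were Coq7 (r = 0.996), Ssr4 (0.994), Spns3 (0.989), Uxt (0.988) and Ms4a3 (0.987), of which Ms4a3 is known from granulocyte and monocyte progenitors. With pair means subtracted they were Uap1l1, Jtb, Ndufb6, Tmpo and Etfb. Cst3 had r = 0.847 with Ctss, and 0.753 after subtraction, the highest of the members in both.

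The genes next to the Ctla2 paralogs had few or no reads. Tpbpb and Tpbpa, known from trophoblast, the cathepsin genes Ctsq and Ctsll3, and BC051665 had 0 reads in the 6 libraries, and Ctsj had 2. The exception was 4930486L24Rik (chr13:60842612-60864475, minus strand), with 294 reads in all. It was at 2.20 CPM in CD38 pos and 3.44 CPM in CD38 neg on average, and the fitted log2 difference was -0.62 (edgeR unadjusted p 0.153, adjusted p 0.930). GENCODE M21 also places the protein-coding genes Gm49391 and Gm49393 over both paralogs and Gm49392 over Ctla2b, on the same strand. These 3 are not among the counted genes and could not be analysed here. Reads from their transcripts cannot be told apart from those of the paralogs.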

How the data were processed

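Read counts per gene were measured in 6 bulk RNA libraries, 3 of each population. The authors deposited whole-number counts per Ensembl gene. The submitters' processing notes name cutadapt, STAR, HTSeq 0.6.1p1 and the builds GRCm38 and mm10; strand setting and annotation release are not given in the sources used here. From the 49585 identifiers, 49326 were matched to symbols and to GENCODE M21, which gave coordinates and lengths.

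From the counts, filterByExpr kept 14785 genes, libraries were scaled by TMM, and edgeR 4.0.16 (R 4.3.3) tested pair plus population by its quasi-likelihood test (legacy estimator) with Benjamini-Hochberg adjustment and a threshold of 0.05. CPM are TMM-scaled; the log2 CPM used for r had a prior count of 2. The procedure was tested on simulated data. The pairs come from the series' design text, and deviations of paired libraries from their group means correlated at 0.34, 0.12 and 0.24. Replicates differed beyond sampling noise, at a chi-square per degree of freedom of 51.5 to 116. The biological coefficient of variation was 23.2%.

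Members and lists were chosen with earlier results of these data known. Named genes were all 10 members, up to 3 of the smallest p per further list, the 5 most alike for Ctla2a and Ctss by each measure, and the neighbours of the paralogs. Floors of 3 counts cover counting error only. Protein sequences were not used here, and the result of 1 marker gene is not reported here. Alternatives were a fit without the replicate block, DESeq2 1.42.0, limma-voom (limma 3.58.1), edgeR's newer estimator, other scalings, filters and gene lengths, a threshold of 0.1, and leaving out each pair.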

Additional observations from a re-analysis of the deposited data

How the results depend on the processing

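The count of all genes past the threshold was 2 with the replicate block and moved with the settings. It was 0 with no replicate block (unadjusted p under 0.05: 417 genes), 0 with library totals in place of TMM (595), 3 in limma-voom, 6 with edgeR's newer estimator, 7 with DESeq2 size factors, 7 at a threshold of 0.1, 11 in DESeq2, 13 with a mean of at least 10 counts, 80 with no filter, and 2 to 41 over the 3 fits without 1 pair, with 41 without pair 2 and 12 without pair 3. The count of members was 0 in edgeR and became 1 in DESeq2 and 1 with no filter, the gene being Ctla2a, by which the set was chosen. It was 0 under every other setting run, also with no replicate block. The cause of these shifts was not tested.

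Cst3 changed sign to 0.0153 with no replicate block and 0.0003092 with no filter; over the 3 fits without 1 pair it was -0.15 to 0.10. In those fits Ctss was at -0.33 to 0.12 and Ctsw at -0.40 to 0.14. The other members kept their direction under all 11 alternatives, with adjusted p of 0.599 to 0.9999 for Ctla2b, 0.722 to 0.9999 for Ctsc and 0.676 to 0.9999 for Ctsh. Called genes of the 3 further lists numbered 0 under each. No scaling shifted the all-gene median by 0.1 or more on the log2 scale.

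With the longest transcript as length, CD38 neg levels in CPM per kilobase were 80.9 for Ctla2a, 157 for Ctsb, 74.3 for Ctsc, 126 for Ctsd, 41.9 for Ctsh and 450.3 for Cst3. With the transcript that GENCODE numbers first, chosen after seeing the data, they were 80.9 for Ctla2a, 21.8 for Ctla2b, 157 for Ctsb, 96.0 for Ctsc, 140 for Ctsd, 71.0 for Ctsh, 30.8 for Ctsl and 450.3 for Cst3. The alternatives for genes of the further lists were also added after seeing the data, and the rankings by r were not recomputed. Levels under 3 counts, at most 0.18 CPM, were not detectable.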
